A study of Homo sapiens with 6 samples.

Results

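IFI27 and IFI6 encode small hydrophobic proteins of the FAM14 family, which also holds IFI27L1 and IFI27L2. In the deposited array table these 4 genes were measured by 5 probe sets, out of 49395 probe sets in all and 18132 genes named by a single symbol. A probe set was taken where the platform annotation gave it 1 symbol and that symbol was one of the 4. IFI27 had 2 probe sets and the other genes had 1 each. The family was chosen by the measured changes of IFI27 and IFI6, which were already known to stand among the largest rises in these samples. The comparison of EPC-Exos with PBS therefore describes the members and does not test them, and no p-value is given for them.

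The cells were HMEC-1, an immortalised human microvascular endothelial line, kept in serum-free MCDB131 medium. In 3 samples they had received EPC-Exos at 1e+11 particles per mL for 24 hours, and in 3 samples they had received the same volume of PBS for the same time. The labels give EPC-Exos only as this abbreviation. The study is known to concern exosomes, which are small extracellular vesicles, from endothelial progenitor cells. PBS holds no vesicles, so the control does not separate EPC-Exos from vesicles of another source. Separate cultures are not stated in the labels for the replicates. All errors and calls measure the spread between these arrays only, which may be technical.

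Type I interferons bind the receptor chains encoded by IFNAR1 and IFNAR2, which act through the kinases JAK1 and TYK2. The kinases activate STAT2, which joins IRF9 in a complex that binds interferon-stimulated response elements in promoters. IFI27 and IFI6 are classical targets of this complex. IFI27, also named ISG12a, has been placed at mitochondria and at the nuclear envelope and can promote apoptosis in several cell types. IFI6, also named G1P3, is known to block apoptosis at mitochondria and to act against flaviviruses at the endoplasmic reticulum. IFI27L1 and IFI27L2 lie beside IFI27 on chromosome 14 and are far less studied, while IFI6 lies alone on chromosome 1.

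The promoters are shown first, because the matches described here lie in the promoters of IFI27 and IFI6 and not in those of the other pair. Each sequence is 120 bases long and runs 5′ to 3′ on the gene's strand from 170 to 51 bases before a start site in RefSeq (GRCh38.p14). Capitals mark matches to the response element, on either strand: its core, which is GAAA, any 2 bases and GAAA again, or a longer form in which CT follows. The IFI27 stretch lies at chr14:94110566-94110685 on the plus strand, and that of IFI6 at chr1:27672243-27672362 on the minus strand. The IFI27L1 stretch lies at chr14:94081140-94081259 on the plus strand, and that of IFI27L2 at chr14:94129655-94129774 on the minus strand.
IFI27: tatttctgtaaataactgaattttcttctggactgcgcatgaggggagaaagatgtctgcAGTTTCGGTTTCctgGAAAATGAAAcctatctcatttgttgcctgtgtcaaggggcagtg
IFI6: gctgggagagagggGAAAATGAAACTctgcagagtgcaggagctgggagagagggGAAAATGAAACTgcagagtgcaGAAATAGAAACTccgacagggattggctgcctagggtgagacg
IFI27L1: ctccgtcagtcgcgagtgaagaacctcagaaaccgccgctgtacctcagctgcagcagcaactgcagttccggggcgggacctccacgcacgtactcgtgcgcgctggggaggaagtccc
IFI27L2: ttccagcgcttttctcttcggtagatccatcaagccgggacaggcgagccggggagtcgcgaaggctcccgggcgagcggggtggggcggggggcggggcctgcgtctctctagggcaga

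In IFI27 the first capital run is the longer form read on the opposite strand, 110 to 99 bases before the start site. The second run is a core match on the gene's own strand, 95 to 86 bases before it. A match to the symmetric STAT motif, TTC, any 3 bases and GAA, 101 to 93 bases before the start site, bridges the runs and overlaps both. IFI27 has a second RefSeq start site whose window overlaps this one and holds these matches at other distances. IFI6 had 3 matches to the longer form, which begin 156, 115 and 93 bases before the start site. The first and the second lie in an exact repeat of 29 bases, ggagctgggagagaggggaaaatgaaact, whose copies start 41 bases apart. IFI27L1 and IFI27L2 had 0 matches to any of the 3 motifs in the whole window, which runs from 250 bases before to 50 bases after the start site. Among 35116 such promoter windows in RefSeq, the core was found in 3.57%, the longer form in 0.273% and the STAT motif in 7.66%. The longer form occurred at least 3 times in 2 of these windows, that of IFI6 among them. The motifs were chosen after the promoters had been read, so neither these shares nor the split between the 2 pairs of genes is a test. A match is a description of the letters. Binding was not measured here.

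**Figure D1:**
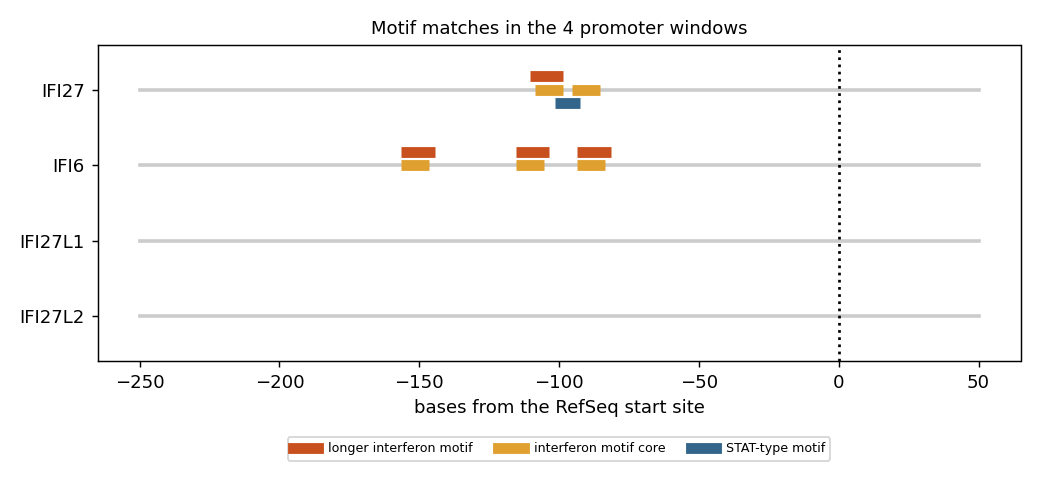
Positions of motif matches on either strand in the promoter windows of the 4 genes, with distance in bases from the RefSeq start site (dotted line) on the horizontal axis and 1 gene per row. Orange bars are the longer response element, yellow bars its core and the blue bar the STAT motif; IFI27 and IFI6 carry matches, and IFI27L1 and IFI27L2 carry 0.

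IFI27 and IFI6 were far higher with EPC-Exos than with PBS, and IFI27L1 and IFI27L2 were slightly lower. All values are log2 signals, so a difference of 1 is a doubling, and n is 3 arrays per group throughout. The changes are EPC-Exos minus PBS, with limma's moderated standard error (SE).

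The stronger IFI27 probe set, 11757480_x_at, had log2 signals of 12.37, 12.55 and 12.44 with EPC-Exos, against 7.25, 7.55 and 7.54 with PBS. Its means were 12.45 ± 0.091 with EPC-Exos and 7.44 ± 0.17 with PBS (SD, n = 3 each), a change of 5.01 ± 0.074 (SE) or 32.2-fold. The lowest EPC-Exos array lay 4.82 above the highest PBS array, and within each group the arrays spanned 0.18 with EPC-Exos and 0.30 with PBS. PBS replicate 1 was the lowest array. In bulk RNA, more cells with a transcript and more of it per cell cannot be told apart, for this and every later result.

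The other IFI27 probe set, 11715893_s_at, had log2 signals of 10.99, 10.87 and 10.86 with EPC-Exos, against 6.64, 6.76 and 6.79 with PBS. Here the change was 4.18 ± 0.069 (SE), or 18.1-fold, and the groups again stood apart, by 4.07. The 2 probe sets thus had the same direction but differed in size by 0.83 ± 0.10 on the log2 scale (SE over the arrays). The ending _x_at or _s_at means that probes can also bind other transcripts. Probe sequences were not used here, so which size is nearer to that of the transcript was not tested.

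IFI6, measured by 11718986_a_at, had log2 signals of 12.27, 12.31 and 12.42 with EPC-Exos, against 9.22, 9.44 and 9.40 with PBS. Means were 12.34 ± 0.076 with EPC-Exos and 9.35 ± 0.12 with PBS (SD, n = 3 each), a change of 2.98 ± 0.059 (SE) or 7.91-fold. No array of one group reached the other, and the gap between them was 2.84. PBS replicate 1 was again the lowest of the 6. The change of IFI27 was larger than that of IFI6 by 2.03 ± 0.072 with the stronger IFI27 probe set and by 1.19 ± 0.086 with the other (SE over the arrays).

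IFI27L1, measured by 11757449_a_at, had log2 signals of 8.84, 8.88 and 8.80 with EPC-Exos, against 9.11, 9.12 and 9.24 with PBS. The change was -0.32 ± 0.065 (SE), or 0.802-fold. All 3 EPC-Exos arrays lay below all 3 PBS arrays, with a gap of 0.24.

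IFI27L2, measured by 11729742_x_at, had log2 signals of 8.62, 8.67 and 8.54 with EPC-Exos, against 8.75, 8.86 and 8.94 with PBS. The change was -0.24 ± 0.071 (SE), or 0.845-fold, and the gap between the groups was 0.079, which is smaller than the span of 0.14 among the EPC-Exos arrays. The changes of IFI27L1 and IFI27L2 differed from each other by -0.076 ± 0.035 (SE over the arrays), and each lay more than 3 log2 units below that of IFI6. Every member value on every array, the lowest being 6.64, lay above 4.97, the highest mean among the Tag control probe sets, whose probes have no human target.

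**Figure D2:**
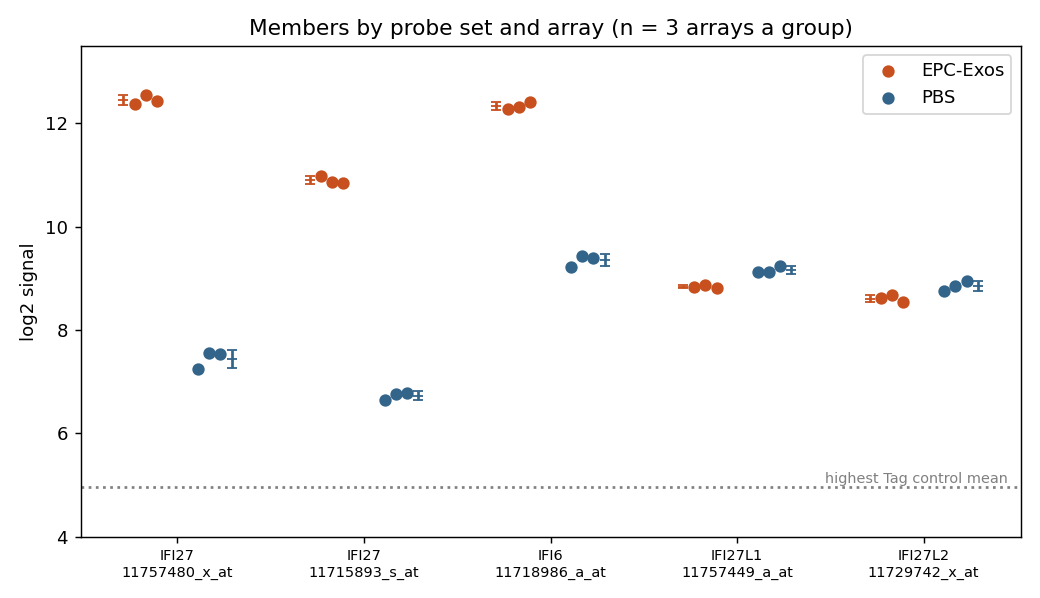
Log2 signal of each array (points) for the 5 probe sets of the 4 genes, EPC-Exos in orange and PBS in blue, with the group mean and SD beside the points (n = 3 arrays each). The 2 IFI27 probe sets and the IFI6 probe set sit far higher with EPC-Exos, the IFI27L1 and IFI27L2 probe sets slightly lower, and the dotted line is the highest Tag control mean of 4.97.

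In the fit over 11715 genes, all 4 members passed an adjusted p under 0.05, 2 of them higher with EPC-Exos and 2 lower (limma with Benjamini-Hochberg adjustment). That threshold was passed by 49.1% of tested genes, 21.7% higher and 27.3% lower. The groups did not overlap in any of the 4 members, and they did not overlap in 55.7% of tested genes. By probe set, 3 of the 5 were higher without overlap and 2 lower, against 20.0% and 19.1% of all non-control probe sets. The series' own threshold is a change of 1.5-fold with p under 0.05, and no model is named for it. Applied here to limma's p before adjustment, it was met upward by IFI27 and IFI6 (3.94% of tested genes) and by neither of the others (5.96% downward). These shares are given for scale, since the contrast itself drew attention to the family. The call of IFI27L2 was lost without EPC-Exos replicate 3, where its change was -0.21 ± 0.084 (SE).

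By size of change, IFI27 by its stronger probe set ranked 1st among the rises of the 11715 tested genes and IFI6 ranked 9th. By its other probe set (4.18) IFI27 would rank 2nd, below MX1. IFI27L1 and IFI27L2 ranked 1899th and 2537th from the bottom, inside the bulk of all genes, whose median change was -0.011. MX1, an antiviral GTPase gene, rose by 4.34 ± 0.10 (SE). Its PBS mean of 4.39 lay below the highest Tag control mean of 4.97, so the size of its rise is uncertain.

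**Figure D3:**
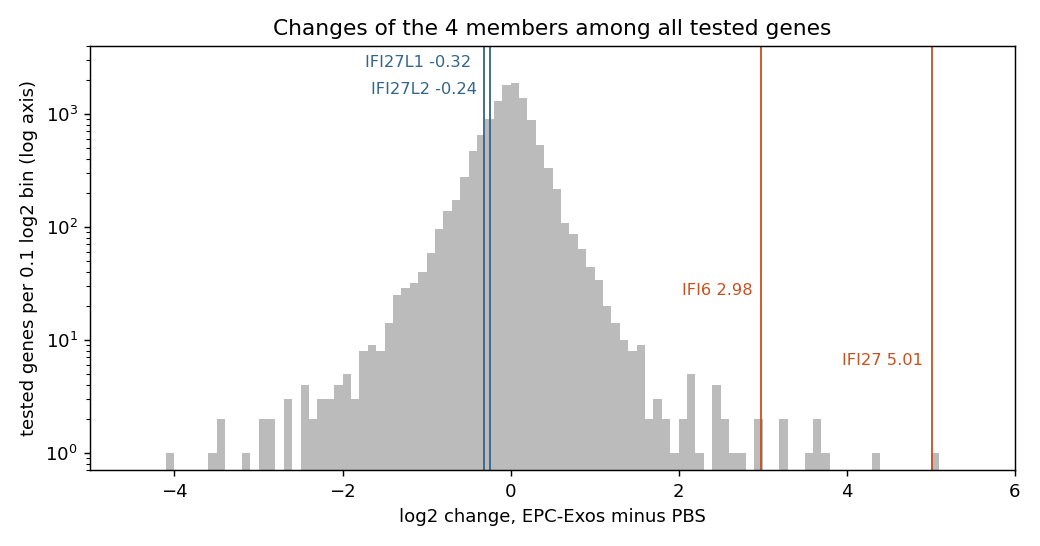
Histogram of log2 changes (EPC-Exos minus PBS) over the 11715 tested genes, with the number of genes per bin on a log axis and a line at each member (IFI27 by its stronger probe set). IFI27 at 5.01 is at the far right end and IFI6 at 2.98 near it, while IFI27L1 at -0.32 and IFI27L2 at -0.24 fall within the bulk.

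Likeness of profile was measured as the root mean square difference over the 6 arrays after each gene had been set to a PBS mean of 0. The gene nearest to IFI27 was MX1, at a distance of 0.49 log2 units. ESM1, which encodes endocan (0.91), the GTPase gene MX2 (0.94), the chemokine gene CXCL3 (0.96) and IL13RA2, a decoy receptor gene (1.03), came next. All of these genes but ESM1 had PBS means below the highest Tag control mean of 4.97, so their distances are uncertain. The distances to IFI27 given so far rest on its stronger probe set. With the other the same 5 genes were nearest, in the same order, at 0.18 for MX1 and 0.33 to 0.46 for the rest. The distance mainly follows the size of the change, so the genes nearest to a large riser are those with rises of similar size. For IFI27 these could only be other top risers, so the result with its other probe set is no separate check. The genes nearest to IFI6 were OAS1, an RNA-activated antiviral synthetase gene (0.14), ANGPTL4, a lipase inhibitor gene (0.18), KRTAP2-3 of the keratin-associated family (0.20), the interferon-induced IFI44L (0.24) and the chemokine gene CXCL2 (0.27). Both sets mix interferon-induced genes with others. For IFI27L1 the nearest was TBC1D10A (0.0079) and for IFI27L2 TMEM256 (0.019). Such small distances are easily found among many genes with small changes.

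No tested neighbour of the 2 risers on the chromosome changed by more than 0.36 on the log2 scale. Of the 16 protein-coding genes nearest to the chromosome 14 cluster and to IFI6, 4 on each side, 10 were tested, 3 rose and 0 fell, with a median change of 0.12 (called in either direction, 49.1% of all tested genes). With the mean of each gene's probe sets, 7 neighbours were tested, 1 rose and 1 fell. Another 4 lay below the signal filter and 2 were not analysed here. DDX24, an RNA helicase gene next to IFI27L1, rose by 0.29 ± 0.046 (SE, adjusted p = 5.53e-05, limma). Near IFI6, THEMIS2 changed by 0.35 ± 0.082 (adjusted p = 0.00185) and GPR3, a G protein-coupled receptor gene, by 0.36 ± 0.11 (adjusted p = 0.0121, limma). The genes directly beside IFI6, FGR and FAM76A, had changes of -0.066 ± 0.11 and 0.0095 ± 0.075 (SE) and did not pass. Within the cluster IFI27, by its stronger probe set, stood 5.33 ± 0.095 above IFI27L1 and 5.25 ± 0.072 above IFI27L2 in change (SE over the arrays). By the other probe set it stood 4.49 ± 0.059 and 4.42 ± 0.055 above them.

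**Figure D4:**
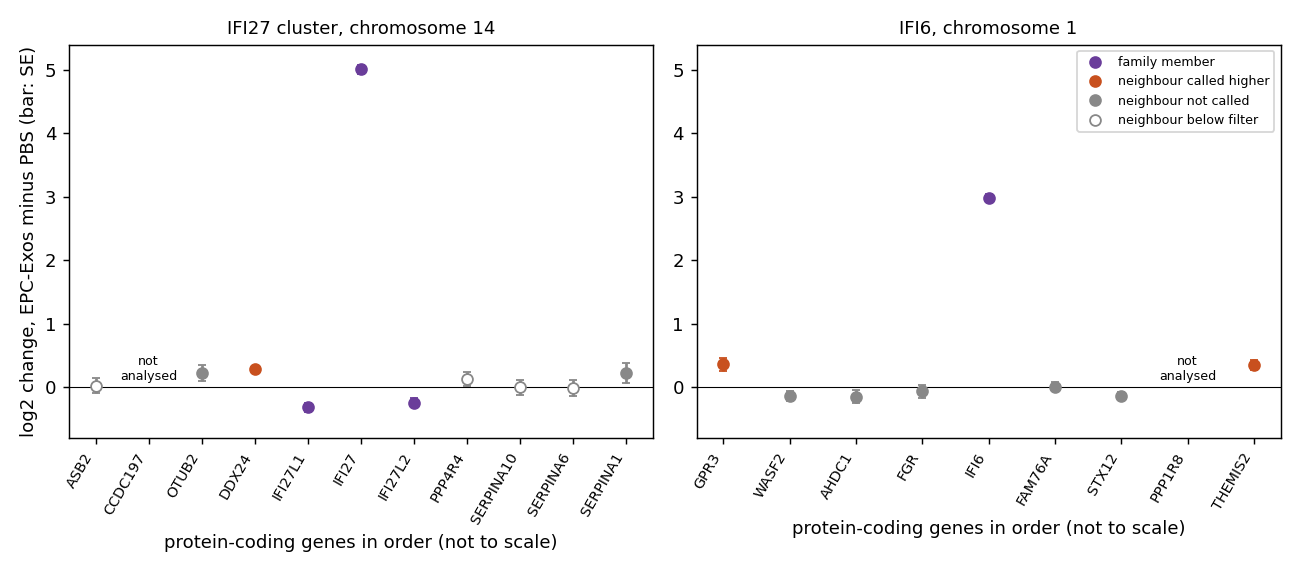
Log2 change (EPC-Exos minus PBS, bars are moderated SE) of the family members in purple and of the nearest protein-coding genes, in chromosomal order and not to scale, for the chromosome 14 cluster (left) and for IFI6 on chromosome 1 (right). IFI27 at 5.01 and IFI6 at 2.98 stand far above the rest, and the 3 neighbours called higher lie between 0.29 and 0.36.

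Genes of the pathway that induces IFI27 and IFI6 moved in both directions. Of 21 listed ligands, receptors, kinases, transcription factors and feedback genes, 13 were tested. Among those 4 rose, 4 fell and 5 missed the threshold (61.5% called, against 49.1% of all tested genes), and the median change was -0.11. With the mean of each gene's probe sets, 11 of the 13 were called, 5 higher and 6 lower, so the calls depend on the choice of probe set. Among transcription factor genes, IRF9, the DNA-binding partner of STAT2, had log2 signals of 10.60 ± 0.074 with EPC-Exos and 9.40 ± 0.13 with PBS (SD, n = 3 each), and rose by 1.20 ± 0.067 (SE, adjusted p = 3.52e-10, limma). IRF7, which amplifies interferon production, rose by 0.90 ± 0.088 (adjusted p = 3.02e-07, limma), and IRF1 changed by -0.56 ± 0.080 (adjusted p = 1.96e-05, limma). IRF3, the constitutive partner of IRF7, did not pass (0.19 ± 0.081).

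Among the feedback genes, ISG15, a ubiquitin-like modifier that also stabilises an interferon inhibitor, rose by 1.22 ± 0.045 (adjusted p = 2.01e-12, limma). SOCS3, a cytokine signalling inhibitor, rose by 1.07 ± 0.082 (adjusted p = 1.84e-08, limma). PIAS1 did not pass (-0.0024 ± 0.068), and SOCS1 lay below the signal filter. At the receptors, IFNAR1 (-0.11 ± 0.078) and IFNAR2 (-0.12 ± 0.072) did not pass. The chains that bind interferon lambda, IFNLR1 (-0.45 ± 0.12) and IL10RB (-0.39 ± 0.078), fell (adjusted p = 0.00379 and 0.000586, limma). JAK1 fell as well (-0.32 ± 0.046, adjusted p = 2.02e-05, limma), while TYK2 did not pass (-0.17 ± 0.073).

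The listed interferon genes with values, IFNB1, IFNE, IFNK and IFNL1, were all below the signal filter and below the highest Tag control mean in both groups. Interferon genes outside the list were not examined. IFNB1 had log2 signals of 3.55 ± 0.23 with EPC-Exos and 3.29 ± 0.19 with PBS, and IFNE had 4.79 ± 0.077 with EPC-Exos and 4.0 ± 0.14 with PBS (SD, n = 3 each). In the fit without the filter IFNE differed (adjusted p = 1.82e-05, limma) and IFNB1 did not pass (adjusted p = 0.144). IFNK and IFNL1 did not pass either. STAT2, USP18 and IFNA1 were not analysed here.

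Proteins encoded by HSPA5, NR4A1, XPO1 and SKP2 have been reported to bind IFI6 or IFI27. All 4 were tested, 2 rose and 0 fell (50% called, against 49.1% of all tested genes). With the mean of each gene's probe sets, or without _x_at and _s_at probe sets, 3 rose. HSPA5, the endoplasmic reticulum chaperone BiP and a partner of IFI6, rose by 0.29 ± 0.032 (adjusted p = 1.36e-06, limma). SKP2, a ubiquitin ligase subunit that can bind IFI27, rose by 0.40 ± 0.080 (adjusted p = 0.000457, limma). The nuclear receptor gene NR4A1 (0.12 ± 0.093) and the nuclear export receptor gene XPO1 (0.089 ± 0.051) did not pass.

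**Figure D5:**
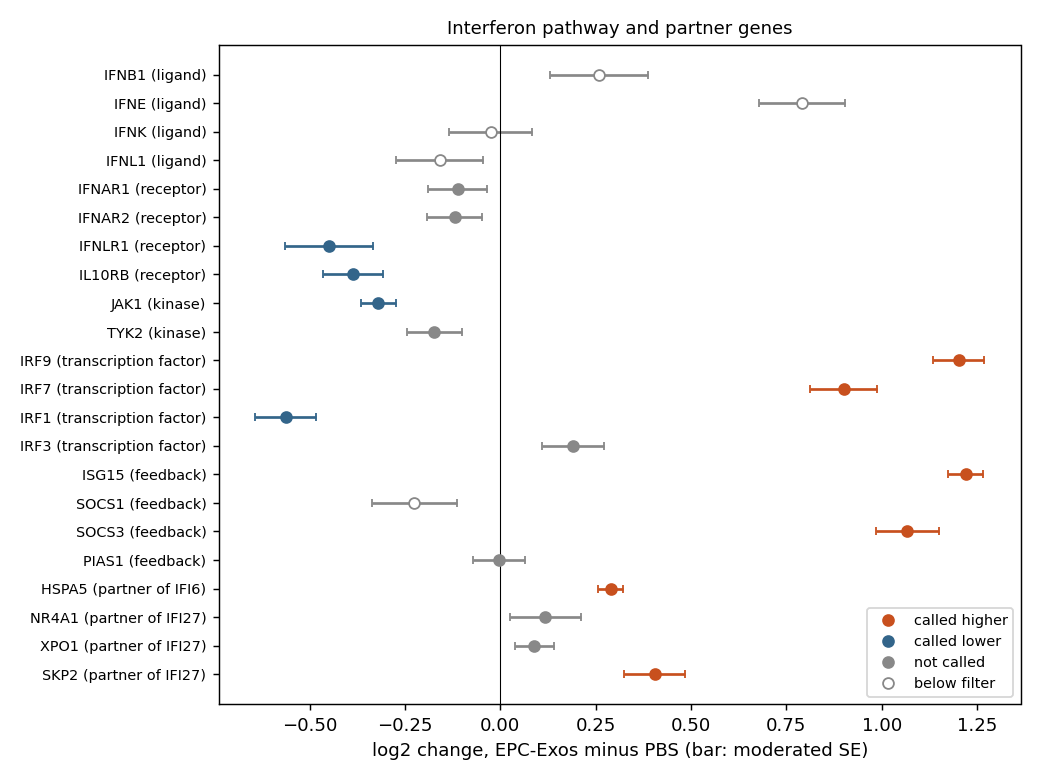
Log2 change (EPC-Exos minus PBS, bars are moderated SE) of the listed interferon pathway and partner genes, 1 gene per row with its role in brackets; orange is called higher, blue called lower, filled grey not called and open grey below the signal filter. ISG15 (1.22), IRF9 (1.20), SOCS3 (1.07) and IRF7 (0.90) lie farthest to the right and IRF1 (-0.56) farthest to the left.

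Tested genes outside the family whose promoter window holds the longer response element can be set beside IFI27 and IFI6. There were 36 of them, of which 21 rose and 9 fell, with a median change of 0.26. Over the 9655 tested genes with a promoter window outside the family, 22.1% rose and 28.0% fell, with a median of -0.013. The other 2 motifs lay nearer to these shares. Of 369 tested holders of the core, which include those of the longer form, 28.2% rose and 26.8% fell (median 0.014). Of 821 tested holders of the STAT motif, 23.6% rose and 26.3% fell (median -0.0079). The changes of the 36 holders of the longer form ran from MX1 at 4.34 ± 0.10 to NCOA7 at -0.51 ± 0.065 (SE). IFI6 stood above all of them but MX1, and IFI27 above all of them by its stronger probe set and below MX1 by the other. This standing follows from the choice of the family by the rises of IFI27 and IFI6, and it tests nothing. Interferon-induced holders of the longer form that rose include, beside MX1, IFITM1 (2.49 ± 0.081), IFI44 (1.36 ± 0.052) and IFIT1 (1.03 ± 0.080). Interferon-induced holders also include HERC5, an ISG15 ligase gene, which fell (-0.23 ± 0.081), and IFIT3, which did not pass (0.19 ± 0.081). These genes were named after their values were seen.

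Arrays of one group correlated at 0.997 to 0.998 over non-control probe sets, and arrays of different groups at 0.988 to 0.989. Of 10 endothelial markers 6 were tested, 3 rose and 0 fell, with ENG, endoglin, changing most (0.81 ± 0.065), which is 50% called against 49.1% of all tested genes. PECAM1 lay below the signal filter and little above the Tag control level, at 5.23 with EPC-Exos and 5.18 with PBS. Another 3, CDH5, TEK and EMCN, lay below the highest Tag control mean in both groups. The summed linear signal of all 10 endothelial markers was 1737 to 1760 with EPC-Exos and 1056 to 1202 with PBS. ENG was the largest part of it in both groups. Of 5 fibroblast and smooth muscle markers, DCN and ACTA2 fell, LUM below the filter had 3.67 ± 0.044 with EPC-Exos and 5.97 ± 0.038 with PBS, PDGFRA was below the Tag control level, MYH11 did not pass (-0.061 ± 0.10), and the summed signal was 185 to 231 with EPC-Exos and 565 to 612 with PBS. Of 6 blood cell markers, CD68 rose, the leukocyte gene PTPRC was below the Tag control level, and the sum was 422 to 462 with EPC-Exos and 284 to 297 with PBS. Platelet marker sums were 129 to 163 with EPC-Exos and 126 to 150 with PBS. Epithelial marker sums were 3623 to 3772 with EPC-Exos and 5663 to 6203 with PBS, mostly KRT18. The part of these shifts in the changes of IFI27 and IFI6 was not tested.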

How the data were processed

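RNA of 6 HMEC-1 samples was hybridised to Affymetrix 3′ IVT arrays, per the labels' protocols. The authors deposited 1 log2 signal per probe set and array. MAS5 is named in the submitters' processing notes with no role, while further steps of background correction and summarisation are not given in the sources used here. The log2 scale was read from the values, which ran from 2.47 to 14.52. Array medians lay between 6.25 and 6.34, so the scaling was kept.

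Names came from the platform's annotation, in which 44988 probe sets had 1 symbol, 1832 several, 2473 none and 102 were controls. For each gene the probe set of highest mean signal over the 6 arrays was used, and it was tested where that mean reached the 40th percentile of non-control probe sets, 5.45. Groups came from the sample titles. The comparison used limma 3.58.1 under R 4.3.3 (two-sided, lmFit and eBayes with a variance trend, Benjamini-Hochberg over 11715 genes), and all 49293 non-control probe sets were fitted likewise for the members. The fit was tested on simulated data. Changes and SEs given for each member's probe sets are from the probe set fit, other genes from the gene fit. Ranks, calls and recomputed values of members use the gene fit, except those of the second IFI27 probe set. The histogram of changes and the plot of neighbours use the gene fit too. The precision is limited by the number of arrays. No dates or batches are labelled, so an effect of batch and one of EPC-Exos cannot be told apart if each group was handled together.

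The members, gene lists and naming rule (members, listed genes and the genes most alike in profile) were chosen with earlier results of these data known, and the motifs after the promoters had been read. A planned ranking by Pearson r is not given, since the 2 groups form separate clusters. Promoter windows were matched by symbol for 4 of 4 members. Alternatives were other scalings, offsets, filters, probe set choices, variance models, the replicate number as a block and leaving out each array. An item of the planned pathway list is not reported here.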

Additional observations from a re-analysis of the deposited data

How the results depend on the processing

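Over 127 values recomputed under the alternatives, 122 stayed within the replicate spread or 1.5 times the reported count, 5 moved and 0 changed direction. Part of this tally was fixed in advance. Counts of calls were compared by size only and could not change direction. A member's change stays the same under other filters and the replicate block, as does that of a gene with 1 probe set under the probe set mean. With an offset of 64 on the linear scale the change was 4.57 for IFI27 and 2.87 for IFI6, both on the log2 scale, since an offset shrinks changes. With the mean of its probe sets IFI27 changed by 4.59, and by its second probe set alone, an alternative chosen after seeing the data, by 4.18. Without _x_at and _s_at probe sets, 5 interferon pathway genes were called in place of 8, with 10 tested, and IFI27 and IFI27L2 had no value. Leaving out 1 array at a time gave 4.91 to 5.06 for IFI27, 2.92 to 3.02 for IFI6, -0.34 to -0.28 for IFI27L1 and -0.29 to -0.20 for IFI27L2, and 4975 to 5660 called genes. Interferon pathway calls were 8 or 9, partner calls 2, and neighbour calls 2 or 3. The labels do not say that replicate numbers pair the arrays. Deviations of same-numbered arrays correlated at 0.11, 0.093 and 0.044, and each array correlated best with its own number, a hint from the data and not from the design. With the replicate block 6118 genes were called in place of 5748, and 10 interferon pathway genes, 2 partners and 3 neighbours. The median change of all tested genes was 0.013 with equal array medians and -0.0041 with quantile normalization. Values near the Tag control level have uncertain folds.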
